A study of Mus musculus with 6 samples.

Results

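The p53 target genes described here are a list of 33 gene names: Trp53, which encodes the transcription factor p53, its negative regulator Mdm2, and genes known to be switched on by p53. Of the 33 names, 32 are gene names of the arrays (Cd80l is not used here), out of 27361 gene names in all. All 32 entered the tests, which covered 19044 genes. The array probes of 30 of them were well above background on all 6 arrays, as were those of 15877 genes of the series. The exceptions were Eda2r, dim on 1 array (WT M1), and Perp, above background on 2 arrays (KO M2 and WT M0). The list was drawn from known p53 targets and chosen by the measured differences between KO and WT on these same arrays, those of Phlda3, Gtse1 and Ddias among them. Values for KO against WT are therefore descriptions without a test, and the tests below concern only the responses to polarization.

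RNA came from C57BL/6 mouse bone marrow-derived macrophages, cultured over 7 days with 10% of medium conditioned by L929 cells, a source of macrophage growth factor. KO cells carried both LysMcre and the FoxO1 Fl/Fl alleles, and WT cells carried FoxO1 Fl/Fl without Cre, so the floxed Foxo1 gene was common to both genotypes. LysM (Lyz2) directs Cre to myeloid cells, and since only KO cells carried Cre, the presence of Cre and the loss of Foxo1 cannot be told apart. M0 cells had no added stimulus, M1 cells were exposed for 24 hours to LPS (bacterial lipopolysaccharide) at 100 ng/ml and interferon-gamma at 20 ng/ml, and M2 cells for as long to the interleukins IL-4 and IL-13 at 10 ng/ml each. Each of the 6 combinations had 1 array, and the labels give neither the age of the mice nor how many animals supplied the marrow. The number of arrays limits the precision of every value below.

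A level below is the log2 signal of a gene's brightest probe minus the 75th percentile of its array, which lay between 532 and 628 signal units, and it is compared only between arrays for the same gene. A difference of 1 is 2-fold. Foxo1, the targeted gene, gave signals of 224, 165 and 282 units in KO M0, M1 and M2 and of 1505, 1144 and 1559 units in WT M0, M1 and M2. The 8 macrophage markers were above background on all 6 arrays. All 10 liver marker genes were higher on WT M0 and KO M1 than on their partner arrays of the other genotype, with a median level of -4.04 on KO M1, -0.27 on WT M0 and between -6.77 and -5.78 on the other arrays. Neutrophil markers were mostly lower in KO, and their gene-by-gene differences had medians of -2.79, -0.84 and -2.25 for M0, M1 and M2. For stromal markers these medians were -1.36, -0.63 and -1.10. Higher in KO were 3 of the 8 neutrophil markers in M1, and 1 of the 8 stromal markers in M1 and in M2. Above background on all 6 arrays were 4 of the neutrophil and 5 of the stromal markers. The summed signal of the 8 neutrophil markers ran from 3268 to 8116 units in KO and from 8151 to 42968 units in WT, and that of the 8 stromal markers from 2232 to 3006 units in KO and from 4015 to 7507 units in WT. The part of these cell types in the values below was not tested, and in bulk RNA fewer cells of a type and less RNA per cell cannot be told apart. The M0 and M1 pairs of arrays had KO on 1 slide and WT on the other, while both M2 arrays were on 1 slide.

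In unstressed cells p53 is kept scarce by Mdm2, a ubiquitin ligase that marks it for degradation and whose own gene is a p53 target. DNA damage and other stresses release p53 from Mdm2, mostly without a change in Trp53 mRNA, and p53 then binds paired sites near genes that halt the cell cycle, repair DNA, restrain growth signalling or start apoptosis. FoxO transcription factors share some of these targets, among them Cdkn1a, Gadd45a, Sesn1 and Bbc3.

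The p53 response element is shown first for the members whose promoter window holds a match, since it is the sequence feature that defines direct targets. RefSeq promoter windows (GRCm38.p6, from 250 bases before to 50 bases after a gene's start) were at hand for 24 of the 32 genes and for 27025 genes in all. The p53 consensus was searched as a pair of 10-base elements, with 0 or 1 base between them. Their core C and G had to match, and up to 2 other mismatches were allowed. The consensus is palindromic, so 1 scan covers both strands. A match was found in 4 of the 24 genes (16.7%) and in 218 of all 27025 genes (0.807%). The sequences below run 5′ to 3′ on the gene's strand, with the match in capitals.

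The Cdkn1a match (chr17:29090928-29090947, plus strand) had 1 mismatch and began 51 bases before the start of the gene; it is shown within chr17:29090868-29090978.
Cdkn1a: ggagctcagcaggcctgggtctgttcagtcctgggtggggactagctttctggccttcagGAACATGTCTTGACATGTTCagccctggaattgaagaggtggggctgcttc
The Ccng1 match (chr11:40755462-40755481, minus strand) had 1 mismatch and began 195 bases before the start; it is shown within chr11:40755402-40755536.
Ccng1: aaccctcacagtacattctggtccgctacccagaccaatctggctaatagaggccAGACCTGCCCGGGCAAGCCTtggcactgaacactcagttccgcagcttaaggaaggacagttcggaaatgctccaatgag
The Bax match (chr7:45467079-45467099, minus strand) had 2 mismatches and a spacer of 1 base, and began 201 bases before the start; it is shown within chr7:45467019-45467148.
Bax: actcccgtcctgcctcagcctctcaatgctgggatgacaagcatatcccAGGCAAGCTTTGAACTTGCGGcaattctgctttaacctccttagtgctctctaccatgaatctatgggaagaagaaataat
The Gtse1 match (chr15:85859945-85859964, plus strand) had 1 mismatch and began 1 base before a listed transcript start, so the site alone is shown.
Gtse1: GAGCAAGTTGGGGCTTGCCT

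These matches are letters in a window and say nothing of whether p53 was bound in these cells. The differences between KO and WT for the 4 genes (in M0, M1 and M2) were 1.65, 0.88 and 1.66 for Cdkn1a, 1.30, 0.90 and 1.51 for Ccng1, 0.62, 0.29 and 1.19 for Bax, and 2.20, 1.64 and 2.59 for Gtse1. All 12 of these differences were above 0, as were those of 60.8%, 62.4% and 45.0% of the tested genes in M0, M1 and M2. The list was chosen by such differences, and members with and without a match were not compared.

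Across the list, 25 of the 32 genes were higher in KO than in WT in all 3 states, as were 22.1% of the 19044 genes tested. Counted by state, 30 members were higher in KO M0 (60.8% of the tested genes), 29 in KO M1 (62.4%) and 27 in KO M2 (45.0%). At least 2-fold higher in KO were 15 members in M0, where the share over all tested genes was 9.96%, 14 members in M1, where it was 14.0%, and 21 members in M2, where it was 3.33%. Both arrays of the pair were well above background for 15, 12 and 20 of these; the others, Eda2r and Perp in M1 and Perp in M2, are counted by their measured values, which are not shown to be 2-fold. At least 2-fold higher in 2 or more states were 17 members, against 7.23% of the tested genes, with Perp counted although its arrays were partly dim. For M0, M1 and M2 the median difference of the members was 0.77, 0.89 and 1.53, and over all tested genes it was 0.11, 0.13 and -0.05. The M2 values involve neither of the arrays with liver transcripts (KO M1 and WT M0). For 17 members all 3 KO arrays lay above all 3 WT arrays, against 4.12% of the tested genes, and for 0 members did they all lie below. Sesn1 alone was lower in KO in all 3 states. Perp was the 1 member lower in KO by 2-fold or more (in M0, against 4.22% of the tested genes), and there the KO array was not well above background.

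**Figure D1:**
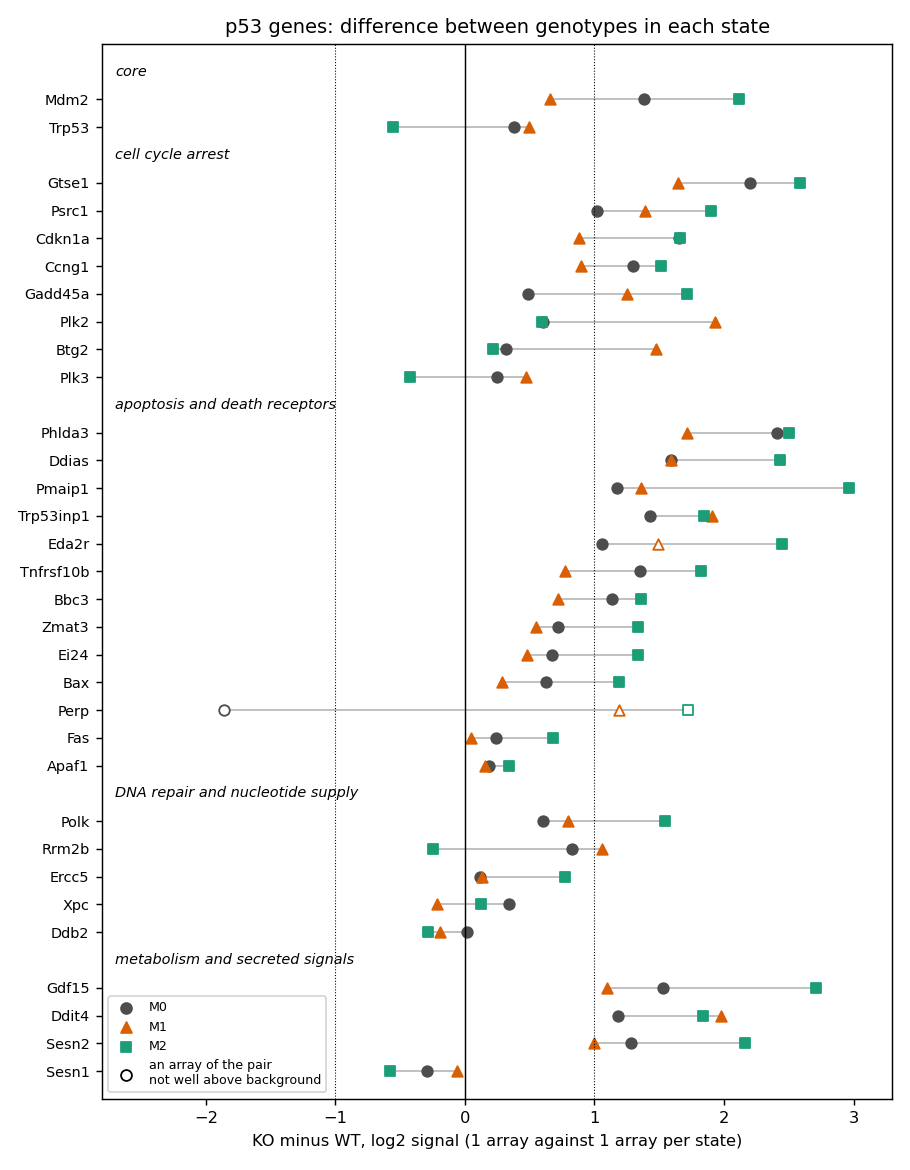
Difference between KO and WT (log2, horizontal axis) of the 32 p53 genes, ordered by role, with 1 point for each state and a line that spans the 3 states. Dotted lines mark 2-fold, open points have an array that was not well above background, and most points lie right of 0.

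Trp53 mRNA itself, which encodes p53, was not higher in KO in every state. It read 1.71, 2.23 and 1.63 in KO M0, M1 and M2, against 1.33, 1.74 and 2.18 in WT M0, M1 and M2. The KO value was the higher one in M0 and M1 and the lower one in M2, with differences of 0.38, 0.49 and -0.55. A second Trp53 probe, printed in 10 spots on each array, gave differences of 0.22, 0.02 and 0.01. Mdm2, the ubiquitin ligase that holds p53 down, read 3.44, 4.34 and 3.63 in KO, against 2.06, 3.68 and 1.52 in WT. Its KO array was higher in every state, by 1.39, 0.66 and 2.11, and its second probe gave 0.99, 0.40 and 1.73.

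Among the 8 genes of cell cycle arrest, the median differences for M0, M1 and M2 were 0.81, 1.32 and 1.59. Cdkn1a, the cyclin-dependent kinase inhibitor p21, read 5.49, 6.60 and 6.03 in KO M0, M1 and M2, against 3.83, 5.72 and 4.37 in WT. The probe is printed in 10 spots, whose standard deviation within an array was 0.03 to 0.05, so the differences of 1.65, 0.88 and 1.66 were larger than the scatter of spots, which covers technical error on the array only. Ccng1, cyclin G1, which brings a phosphatase to Mdm2, read 4.39, 4.39 and 5.02 in KO, against 3.09, 3.50 and 3.51 in WT. Its 3 KO values lay above its 3 WT values, and a second probe differed by 1.37, 0.98 and 1.76.

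Gtse1, a protein of S and G2 phase that binds p53 and carries it out of the nucleus, was a low gene with a large difference. It read -0.98, -1.43 and -0.32 in KO, against -3.19, -3.07 and -2.91 in WT, which is 4.61-, 3.13- and 6.00-fold higher in KO. Psrc1, a microtubule-binding protein of the spindle, read 1.04, 1.81 and 2.92 in KO, against 0.02, 0.42 and 1.02 in WT. The KO arrays of both genes lay above all their WT arrays. Genes that p53 lowers through the DREAM repressor complex, most of them cell cycle genes such as Ccnb1 and Top2a, had median differences of -0.47, 0.15 and -1.28 over 21 genes, and 13 of the 21 were lower in KO M2 by 2-fold or more (4.91% of the tested genes were; Cdc25c, counted here, was above background on 1 array).

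Gadd45a, a stress protein that binds p21 and the clamp PCNA, read 2.43, 0.97 and 1.51 in KO, against 1.94, -0.28 and -0.20 in WT. Its differences were 0.49, 1.25 and 1.71. Plk2, a polo-like kinase, read 1.85, 2.98 and 2.36 in KO, against 1.25, 1.05 and 1.76 in WT. Btg2, an antiproliferative protein that promotes the shortening of mRNA tails, read 2.02, 2.20 and 2.11 in KO, against 1.70, 0.72 and 1.89 in WT. Both were more than 2-fold higher in KO in M1 alone, by 1.93 for Plk2 and 1.48 for Btg2, and all 3 Btg2 probes showed it, at 1.48 to 1.86. Plk3, another polo-like kinase, differed by 0.25, 0.47 and -0.42.

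**Figure D2:**
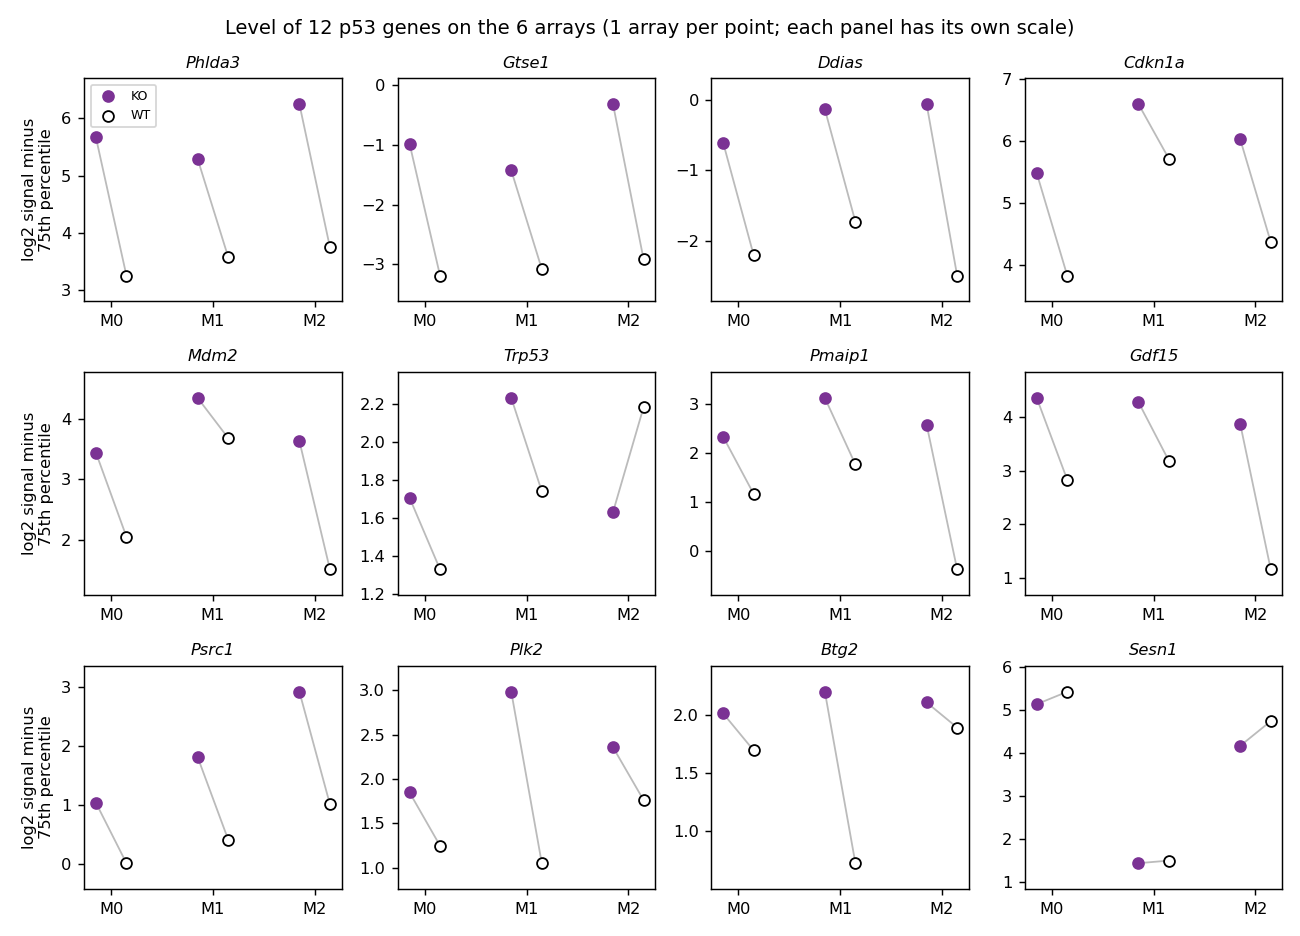
Level (log2 signal minus the array's 75th percentile, vertical axis, a scale of its own in each panel) of 12 p53 genes on the 6 arrays, with KO (filled) left of WT (open) in each state and 1 array per point. In Phlda3, Gtse1, Ddias and Psrc1 every KO point lies above every WT point, whereas Trp53 changes order in M2, Plk2 and Btg2 part mainly in M1, and Sesn1 follows the state.

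The 13 genes of apoptosis and death receptors had median differences of 1.06, 0.77 and 1.72 for M0, M1 and M2, and all but Perp were higher in KO in every state. Phlda3, which blocks the growth kinase Akt by occupying its membrane lipids, had the highest mean difference of the list, 2.21. It read 5.67, 5.29 and 6.25 in KO M0, M1 and M2, against 3.25, 3.58 and 3.75 in WT, which is 5.32-, 3.27- and 5.65-fold. Ddias (named 4632434I11Rik on the array), known in human cells as a suppressor of apoptosis after DNA damage, read -0.61, -0.14 and -0.07 in KO, against -2.20, -1.73 and -2.49 in WT. Trp53inp1, a nuclear stress protein that feeds back on p53 and takes part in autophagy, read 4.44, 3.91 and 4.80 in KO, against 3.01, 2.00 and 2.95 in WT. In all 3 of these genes the lowest KO array lay above the highest WT array.

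Pmaip1 (Noxa), a BH3-only protein that neutralises the survival factor Mcl1, read 2.34, 3.13 and 2.59 in KO, against 1.17, 1.77 and -0.37 in WT. The M2 difference of 2.96, or 7.79-fold, was the largest of any member in any state, and it came with the lowest of the WT values. Bbc3 (Puma), the other p53-dependent BH3-only protein of the list, read 3.69, 2.81 and 3.93 in KO, against 2.55, 2.09 and 2.57 in WT. Its differences of 1.13, 0.72 and 1.36 were smaller and more even over the states. Bax, a pore-forming protein of apoptosis, differed by 0.62, 0.29 and 1.19, with 10 spots per array whose standard deviation was 0.04 to 0.07.

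Tnfrsf10b, the mouse receptor for the death ligand TRAIL, had low signals but was well above background on all 6 arrays. It read -3.75, -4.19 and -1.95 in KO, against -5.10, -4.96 and -3.78 in WT. Eda2r, a TNF receptor family member that binds ectodysplasin A2, read -4.61, -5.48 and -3.16 in KO, against -5.66, -6.97 and -5.61 in WT. Since Eda2r was not well above background on WT M1, its M1 difference is a bound, at least 1.90-fold higher in KO, while its M0 and M2 differences were 1.06 and 2.45. Fas, the receptor for Fas ligand, differed by 0.24, 0.04 and 0.68, and Apaf1, the scaffold of the apoptosome, by 0.19, 0.16 and 0.34. Zmat3, an RNA-binding zinc finger protein, differed by 0.72, 0.55 and 1.34, and Ei24, a protein of the endoplasmic reticulum, by 0.67, 0.48 and 1.34. Perp, a membrane protein of cell junctions, was at least 1.75-fold higher in KO in M2. In M0 its measured value was 3.64-fold lower in KO, which is not a bound, and WT M0 was one of the arrays with liver transcripts. With both M1 arrays dim, no M1 fold is given for Perp, and with normexp background correction its M0 difference had the other sign (1.24).

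The 5 genes of DNA repair and nucleotide supply differed least, with medians of 0.34, 0.14 and 0.13. Xpc and Ddb2, which recognise damaged bases for nucleotide excision repair, differed by between -0.28 and 0.34 in every state. Ercc5, the nuclease that cuts beside the damage, differed by 0.12, 0.14 and 0.77. Polk, a polymerase that copies past damaged bases, differed by 0.61, 0.80 and 1.54, although its second probe gave -0.17 in M0. Rrm2b, the p53-inducible subunit of ribonucleotide reductase, read -2.98, -3.17 and -3.49 in KO, against -3.80, -4.23 and -3.25 in WT, so its difference had the opposite sign in M2.

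Of the 4 genes of metabolism and secreted signals, 3 were higher in KO in every state. Gdf15, a stress cytokine of the TGF-beta family that macrophages secrete, read 4.36, 4.28 and 3.87 in KO, against 2.83, 3.18 and 1.16 in WT, and was 6.56-fold higher in KO M2. Ddit4 (Redd1), an inhibitor of the growth kinase complex mTORC1, read 1.02, 2.35 and 1.76 in KO, against -0.16, 0.37 and -0.09 in WT. Sesn2, a leucine sensor that also restrains mTORC1, read 3.99, 3.97 and 4.16 in KO, against 2.71, 2.97 and 2.00 in WT. A second Sesn2 probe differed by 1.18, 0.58 and 0.89, which is below 2-fold in M1 and M2. Gdf15, Ddit4 and Sesn2 all had KO arrays above every WT array. Sesn1, a sestrin of the same family, read 5.15, 1.45 and 4.18 in KO, against 5.44, 1.51 and 4.75 in WT. Its differences of -0.29, -0.06 and -0.57 had the sign opposite to that of Sesn2 in each state, and all 3 Sesn1 probes were lower in KO in each state.

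Among the genes above background on all 6 arrays, 8 members were at least 2-fold higher in KO in every state, namely Phlda3, Gtse1, Ddias, Trp53inp1, Ddit4, Pmaip1, Gdf15 and Psrc1. The share over the 15877 such genes was 0.246%, or 39 genes, so the 8 members are 26.7% of the 30 members and 20.5% of the 39 genes. With normexp background correction the count was 4 (Phlda3, Gtse1, Ddias and Trp53inp1). Ranked by their smallest difference over the 3 states, Phlda3, Gtse1, Ddias and Trp53inp1 stood 8th, 9th, 10th and 13th of the 15877. These shares and ranks describe differences by which the list was chosen. Sesn2 lay just short of 2-fold in M1 (1.99-fold), as did Ccng1 (1.86-fold) and Cdkn1a (1.85-fold), while Psrc1 lay just past it in M0 (2.03-fold). Several probes above background on every array were present for 13 members, and in 10 of them all probes had the same sign in each state. The 3 with a probe of the other sign in a state were Trp53, Polk and Apaf1.

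How the difference varied over the states was also described. The difference was largest in M2 for 22 members, in M1 for 8 and in M0 for 2, a split not counted over all tested genes. It was larger in M2 than in M0 for 24 of the 32 members, against 40.7% of the tested genes, and larger in M1 than in M0 for 15, against 51.5%. For 10 members the level was above M0 in M2 in KO and below M0 in WT, against 11.6% of the tested genes, and for 3 the same held in M1, against 10.1%. WT M0 and WT M2 were on different slides, and KO M0 and KO M2 on the same slide. In these comparisons of M2 with M0, slide and genotype therefore cannot be told apart.

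The response to polarization was tested over both genotypes with limma (an additive model of state and genotype on all 6 arrays, with Benjamini-Hochberg adjustment over 19044 genes). In M1 against M0, 7 of the 32 members passed an adjusted p of 0.05, against 25.6% of the tested genes, and 12 had an unadjusted p below 0.05, against 41.3%. Higher in M1 were 3 members (Fas, Plk3 and Cdkn1a), with 11.6% of the tested genes, and lower were 4 (Sesn1, Gadd45a, Xpc and Ddb2), with 14.0%. The count of 7 became 3 with normexp background correction (6.74% of the tested genes), 4 without a filter on dim probes (13.4%) and 12 with a variance prior that follows intensity (34.3%). The median M1 response was 0.05 for the members and 0.03 for all tested genes. Each fit has 1 array per genotype and state, so its residual mixes array noise with responses that differ between the genotypes.

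Sesn1 had the largest response of the list and fell in M1 by 3.81 ± 0.20 (log2, SE, 6 arrays; limma adjusted p = 0.00678). It fell by 3.70 in KO and by 3.93 in WT, and the responses of its other probes lay between -4.42 and -3.90. Fas rose in M1 and read 2.92 in KO M1 and 2.88 in WT M1, against 0.59 in KO M0 and 0.35 in WT M0. The response of Fas was 2.43 ± 0.22 (SE; limma adjusted p = 0.0104), and the M2 levels of 0.58 in KO and -0.10 in WT were near those of M0. In KO and WT the response was 2.33 and 2.53.

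Plk3 read 1.63 in KO M1 and 1.15 in WT M1, against -0.17 in KO M0 and -0.42 in WT M0, a response of 1.69 ± 0.28 (SE; limma adjusted p = 0.0263). Its M2 levels were 1.26 in KO and 1.68 in WT, a response of 1.77 ± 0.28 whose limma adjusted p was 0.109. Cdkn1a rose by 1.50 ± 0.27 in M1 (limma adjusted p = 0.0311), by 1.11 in KO and by 1.88 in WT. Its difference between the genotypes was accordingly smallest in M1. Mdm2 moved by 0.90 in KO and 1.62 in WT, but its response of 1.26 ± 0.40 did not pass (limma adjusted p = 0.0955).

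Gadd45a fell by 1.84 ± 0.35 in M1 (limma adjusted p = 0.0339), by 1.46 in KO and by 2.22 in WT. Xpc read -0.13 in KO M1 and 0.09 in WT M1, against 1.19 in KO M0 and 0.85 in WT M0, and 0.47 in KO M2 and 0.35 in WT M2. The M1 response of Xpc was -1.04 ± 0.21 (limma adjusted p = 0.0377), and that of Ddb2 was -0.88 ± 0.17 (limma adjusted p = 0.0342). Xpc and Ddb2 were thus among the 4 members that passed as lower in M1, with 14.0% of the tested genes. The Cdkn1a call was lost under quantile scaling, in the authors' deposited log2 table and with genotype left out of the model, and those of Xpc, Ddb2, Gadd45a and Plk3 under normexp background correction. Without a filter on dim probes the calls of Xpc, Ddb2 and Gadd45a were lost too. So were those of Xpc and Ddb2 under median centring and that of Gadd45a with genotype left out. The Xpc call was also lost with the slide as a term, for M1 the same fit as that without KO M2 or WT M2. Without KO M1 or without WT M0, the arrays with liver transcripts, 0 of all tested genes passed in limma, although the response kept its sign in all 7 members. It was then -4.00 or -3.83 for Sesn1, 2.64 or 2.49 for Fas, 1.88 or 1.31 for Cdkn1a and -1.92 or -1.34 for Gadd45a.

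In M2 against M0, 0 of the 32 members passed in limma, against 0.0998% of the tested genes (19 genes), and 7 members had an unadjusted p below 0.05, against 19.1%. The lowest adjusted p was 0.109, for Plk3. Psrc1 (1.43 ± 0.27) and Tnfrsf10b (1.56 ± 0.31) had higher and Gadd45a (-1.53 ± 0.35) lower values in M2 in both genotypes, with limma adjusted p of 0.130, 0.136 and 0.158. With a variance prior that follows intensity, 4 members passed (Plk3 and Psrc1 higher, Sesn1 and Gadd45a lower), with 5.64% of the tested genes.

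**Figure D3:**
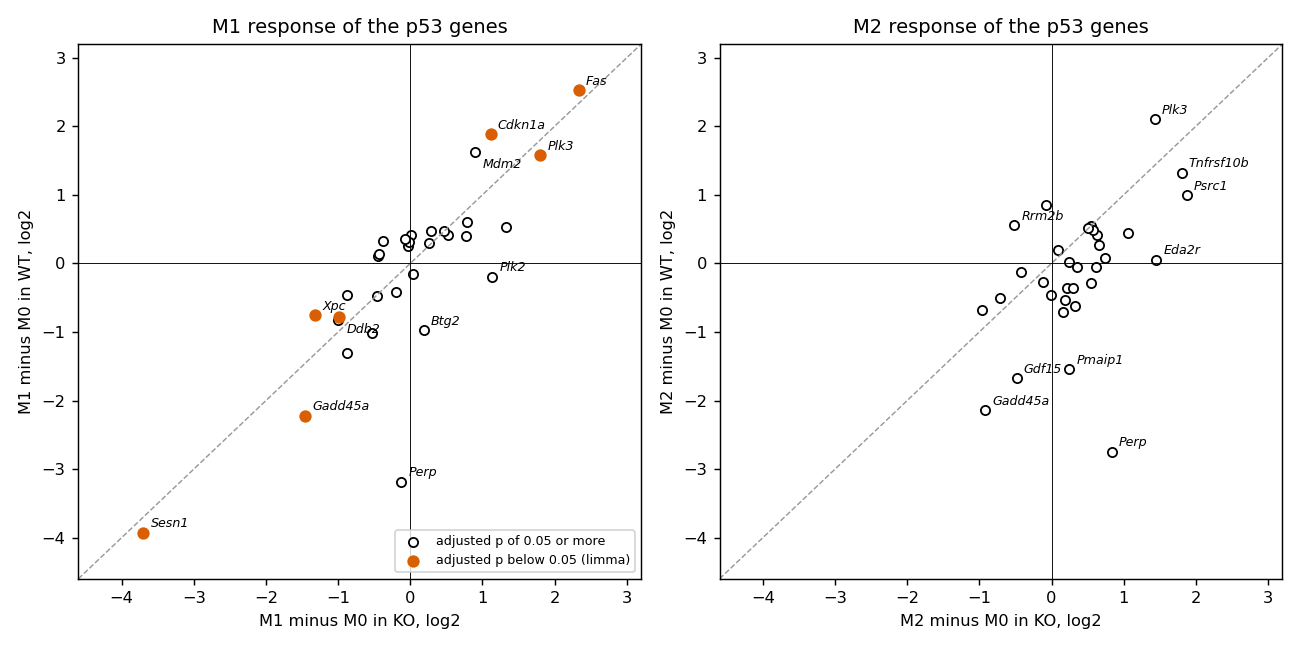
Response to polarization (log2, M1 minus M0 on the left and M2 minus M0 on the right) of the 32 p53 genes, with the response in KO on the horizontal and that in WT on the vertical axis, 1 array against 1 array each. Filled points passed an adjusted p of 0.05 in limma (7 in M1, 0 in M2), the dashed line marks equal responses, and Perp rests on arrays that were not well above background.

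Other genes of the pathway were set beside the members. Of 25 further p53 targets outside the list, 9 were higher in KO in all 3 states (22.1% of the tested genes were) and 0 were at least 2-fold higher in all 3, with medians of 0.24, 0.28 and 0.18. Aen, an exonuclease of the apoptotic nucleus, differed by 1.22, 0.48 and 1.64, and Cpt1c, a carnitine palmitoyltransferase, by 0.78, 0.52 and 1.80. Zfp365 was well above background on KO M0 and KO M2 alone, where it read -4.33 and -2.12. At least 2-fold higher in KO were 2, 2 and 6 of the 25 in M0, M1 and M2, against 9.96%, 14.0% and 3.33% of the tested genes. Zfp365 is counted there in M0 and M2 by its measured values. Rps27l, a ribosomal protein homologue, was higher in KO by 0.45, 0.49 and 0.51, while Pltp differed by -0.94, -0.89 and -0.89. Others were close between the genotypes, such as Fdxr, a mitochondrial reductase, at 0.06, -0.01 and 0.06. In M1 against M0, 2 of the 25 were higher in limma (Casp1 and Dram1), with 11.6% of the tested genes, and 5 were lower (Ephx1, Sulf2, Steap3, Pltp and Cpt1c), with 14.0%.

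Among 20 regulators and relatives of p53, of which 18 were tested, the median differences were 0.15, 0.15 and -0.04. Ppm1d, a phosphatase that turns p53 signalling off and is itself a p53 target, was higher in KO by 0.59, 0.64 and 0.61. Mdm4, the partner of Mdm2, differed by 0.18, 0.34 and -0.33. Mdm4 responded to M1 instead, by 3.33 ± 0.23 (limma adjusted p = 0.00793), and the p53-binding chaperone gene Daxx rose by 2.28 ± 0.27 (limma adjusted p = 0.0144). The kinase genes Atr and Chek2, which signal damage to p53, fell in M1 by 0.82 and 1.19 (limma adjusted p = 0.0366 and 0.0364). The kinase genes Atm and Chek1 of the same list did not pass (limma adjusted p = 0.103 and 0.445). Of the 18 tested, 2 passed as higher in M1, with 11.6% of the tested genes, and 2 as lower, with 14.0%.

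**Figure D4:**
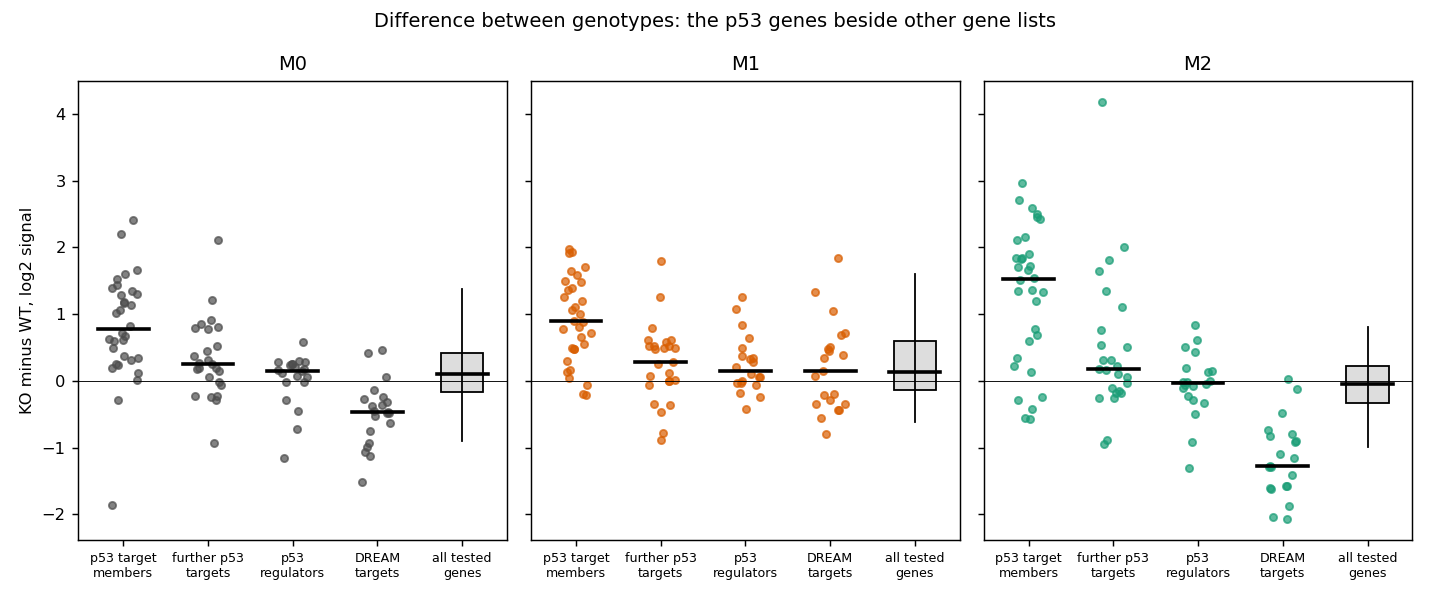
Difference between KO and WT (log2, vertical axis) in M0, M1 and M2 for the 32 p53 genes, 25 further p53 targets, 20 p53 regulators, 21 DREAM targets and all 19044 tested genes, with 1 point per gene and a bar at the median (for all tested genes, a box from the 25th to the 75th and a line from the 5th to the 95th percentile). The p53 genes had medians of 0.77, 0.89 and 1.53. Their list was chosen by these same differences, so their place above the other sets is no independent result. The DREAM targets had the lowest median of the 5 sets in M0 and M2 (-0.47 and -1.28).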

How the data were processed

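Total RNA of 6 macrophage cultures was hybridised to 1-colour Agilent arrays of design 014868. Per the file headers, the deposited spot intensity values came from Agilent Feature Extraction 10.7.3.1 and the processed signal was background-subtracted within each array. A table of log2 values for these arrays, also deposited by the authors, served as an alternative; the sources used here do not give its scaling.

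Control spots and flagged spots (79 to 164 of 43379 per array) were left out and spots of a probe were averaged. Levels are log2 processed signals less each array's 75th percentile, taken from the brightest probe of a gene. Tests covered genes with 2 or more of 6 arrays well above background. limma 3.58.1 in R 4.3.3 was fitted to all 6 arrays with terms for state and genotype and was tested on simulated data. P-values measure only the spread between these arrays, which may be technical. Where an array was dim, a bound was taken against the higher of the lowest signal well above background on that array and the probe's own. For Perp in M0 this was the probe's own signal, so its fold is the measured one and not a bound.

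The members and all gene lists were chosen with earlier results of these data known. Values on all arrays are given for Trp53, Mdm2, Cdkn1a, members 2-fold apart in at least 2 states with both arrays well above background, and members that passed limma and 2-fold in M1 or M2. Plk2, Btg2 and Rrm2b were added after their values were seen. All 32 genes had a RefSeq symbol (1 by synonym), and promoter sequences are RefSeq's, on GRCm38.p6. Alternatives covered the background correction, scaling, probe choice, filters, slide, variance prior, genotype term and each array left out.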

Additional observations from a re-analysis of the deposited data

Results flagged for a closer look

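Plk2, Btg2, Pmaip1 and Rrm2b are listed because their M1 or M2 response had opposite signs in KO and WT, at least 1 apart. All arrays compared were well above background. How many of all tested genes meet this rule was not counted, so the list is not a result about the members. Each response is 1 array against 1 array, and the difference between the genotypes was not tested. WT M0 and WT M2 were on different slides, and KO M0 and KO M2 on the same slide. In the M2 responses, slide and genotype therefore cannot be told apart. Plk2 differed from M0 in M1 by 1.13 in KO and by -0.20 in WT, 1.33 apart. Btg2 differed from M0 in M1 by 0.19 in KO and by -0.97 in WT, 1.16 apart. Pmaip1 differed from M0 in M2 by 0.25 in KO and by -1.54 in WT, 1.79 apart. Rrm2b differed from M0 in M2 by -0.51 in KO and by 0.55 in WT, -1.07 apart. Perp differed from M0 in M2 by 0.84 in KO and by -2.75 in WT, but its KO M0 and WT M2 arrays were not well above background.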

How the results depend on the processing

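No paired analysis was possible because the labels carry no replicate numbers and each genotype and state has 1 array. The median difference of the members stayed between 0.71 and 0.77 in M0, 0.57 and 0.91 in M1, and 1.20 and 1.65 in M2 under the background, scaling, probe and filter alternatives, and 21 to 25 members were higher in KO in every state. The median of the mean over the 3 states was 1.06, and the M2 pair alone, which shares a slide, gave 1.53. The count at least 2-fold higher in KO in every state was 4 under normexp background correction (Ddias, Gtse1, Phlda3 and Trp53inp1) in place of 8, and 19 in the M2 pair alone, an alternative chosen after seeing the data that asks for 1 state in place of 3. Perp reversed under normexp, to 1.24 in M0 and -0.024 in M1. The M1 count of 7 became 3 under normexp, 4 with no filter on dim probes and 12 with a variance prior that follows intensity, settings that called 6.74%, 13.4% and 34.3% of all genes in place of 25.6%; leaving out 1 array gave 0 to 9. It was 0 without KO M0, KO M1, WT M0 or WT M1, fits in which 0 of all 19044 genes passed in limma and 4253 to 5492 had an unadjusted p below 0.05, so these fits say nothing of the members. The M1 count was 9 with the slide as a term, which for M1 against M0 is the same fit as that without KO M2 or WT M2. The M2 count of 0 became 1 under median centring and 4 with the intensity-dependent prior, which called 2.61% and 5.64% of all genes; leaving out 1 array gave 0 each time. The cause of these shifts was not tested. Fas and Sesn1 passed in M1 under every alternative that kept all 6 arrays, with adjusted p up to 0.0245 and 0.0151 in limma. Median centring moved the M1 median difference of all genes to -0.19, and normexp that of M0 to 0.36.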
